A study of Mus musculus and Homo sapiens with 21 samples.

Results

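H9 cells, an established line of human embryonic stem cells in the primed, post-implantation-like state, were compared after 4 days with and without mouse stem cells in the same dish, in cultures that received no doxycycline (dox). The genes described were those with a symbol and at least 10 CPM (a gene's estimated count scaled to the total of its library) in at least 3 of the 6 libraries. That rule took 10263 of the 62754 genes in the human table, of which 42361 had a symbol. It uses the level of a gene and not its difference between groups, although 386 of the genes reached 10 CPM in co-culture libraries alone and 261 in separate cultures alone. Just inside the rule lay NUDT19, TMEM42 and THAP2, for which the third highest CPM was 10.001, 10.01 and 10.02. Just outside it lay GGT1, CAND2 and FAM86EP at 9.999, 9.99 and 9.99 CPM.

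The series measured RNA from human and mouse pluripotent cells grown together or apart, with or without dox, in 21 libraries. The co-culture group (3 libraries) held H9 cells seeded 4 to 1 with mouse epiblast stem cells derived from C57BL/6 mice, and no dox. The series title speaks of stable lines with dox-inducible Cas13, an RNA-guided enzyme that cuts RNA, and of its effect on the mouse transcriptome. The labels name neither the promoter, the guide nor the clone, and do not state outright that the mouse cells carry it. The inducer was absent from both groups compared. A second co-culture (3 libraries) received dox and is given for its levels, with no separate human culture under dox to set it against. The separate group (3 libraries) held H9 cells without mouse stem cells or dox. All 3 groups grew on feeders of mouse embryonic fibroblasts in the medium called NBFR, so mouse fibroblasts were present in the separate cultures too. The labels state neither that replicates were separate cultures nor that both kinds of dish held equal numbers of cells, so p-values measure the spread between these libraries.

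Primed human pluripotent cells keep their identity through POU5F1, SOX2 and NANOG and depend on activin or NODAL and on FGF signals. The balance of these with WNT signals decides whether the cells turn towards primitive streak, mesoderm or endoderm. WNT ligands act through beta-catenin and TCF/LEF factors to switch on streak and caudal genes, and NODAL acts through SMAD2 and SMAD3, with LEFTY proteins and CER1 as its secreted inhibitors. When oxygen is scarce, hypoxia-inducible factors raise glycolytic enzymes and a set of genes for oxygen saving, matrix cross-linking and blood vessel growth.

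Totals were 143180146, 157320157 and 126853797 estimated counts in the co-culture without dox, 117563318, 139033477 and 124409406 in the co-culture with dox and 132208422, 124255656 and 128929366 in separate culture. Replicates correlated at Pearson r of 0.963 to 0.971 across the genes described in the co-culture without dox, 0.973 to 0.980 in the co-culture with dox and 0.989 to 0.994 in separate culture. On the first principal component of these genes, which held 62.4% of the variance, the co-culture libraries without dox lay at 41.5, 48.3 and 35.6, those with dox at -5.17, 1.33 and -6.46, and the separate cultures at -38.3, -36.1 and -40.7. On this component the 3 groups were thus apart from each other with no overlap, and the co-culture with dox lay between the other 2. On the second, with 17.1% of the variance, the co-culture with dox lay at 22.7, 26.6 and 23.7. The co-culture without dox lay there at -10.3, -13.3 and -7.95 and separate culture at -13.3, -14.2 and -13.9. As a check on stray mouse reads, 13 genes with under 0.5 CPM in separate human cells and at least 50 CPM in co-cultured mouse cells were summed. They came to 4.52, 3.18 and 3.86 CPM in the human co-culture table without dox and 1.01, 0.732 and 0.613 CPM in separate culture, beside a mean of 2507.5 CPM in the mouse cells. The co-culture values were 0.180, 0.127 and 0.154% of that mouse level. The low sums in separate culture follow from how the 13 genes were picked. Stray reads in genes that human cells express were not tested.

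Differences were tested with edgeR's quasi-likelihood test, two-sided, with Benjamini-Hochberg adjustment over 24165 human genes, and a gene is said to have risen or fallen at an adjusted p under 0.05. Fold changes are log2 values, co-culture minus separate culture, ± standard error (SE), with 3 libraries a group throughout. Over all genes tested 20.9% rose and 21.2% fell, 42.1% in all. Among the 10263 genes described, 3002 rose (29.3%), 4006 fell (39.0%) and 3255 did not pass, so that 68.3% changed. Changes of at least 2-fold were less common, with 658 genes higher (6.41%) and 697 lower (6.79%), beside 9.06% and 6.21% of all genes tested. The 3 values of one group lay wholly above or below those of the other in 75.6% of the genes described, beside 55.3% of all genes tested. The middle 50% of log2 fold changes ran from -0.50 to 0.35, and the median was -0.098, beside 0.028 over all genes tested. In bulk RNA, fewer cells of a type and less RNA per cell cannot be told apart. The shares above are the level against which each group of genes is to be read. Of the 8931 genes at 10 CPM in all 6 libraries, 2491 rose (27.9%) and 3522 fell (39.4%), 67.3% in all. Of these 4.02% were at least 2-fold higher and 5.30% at least 2-fold lower, and the groups did not overlap in 74.7%.

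**Figure D1:**
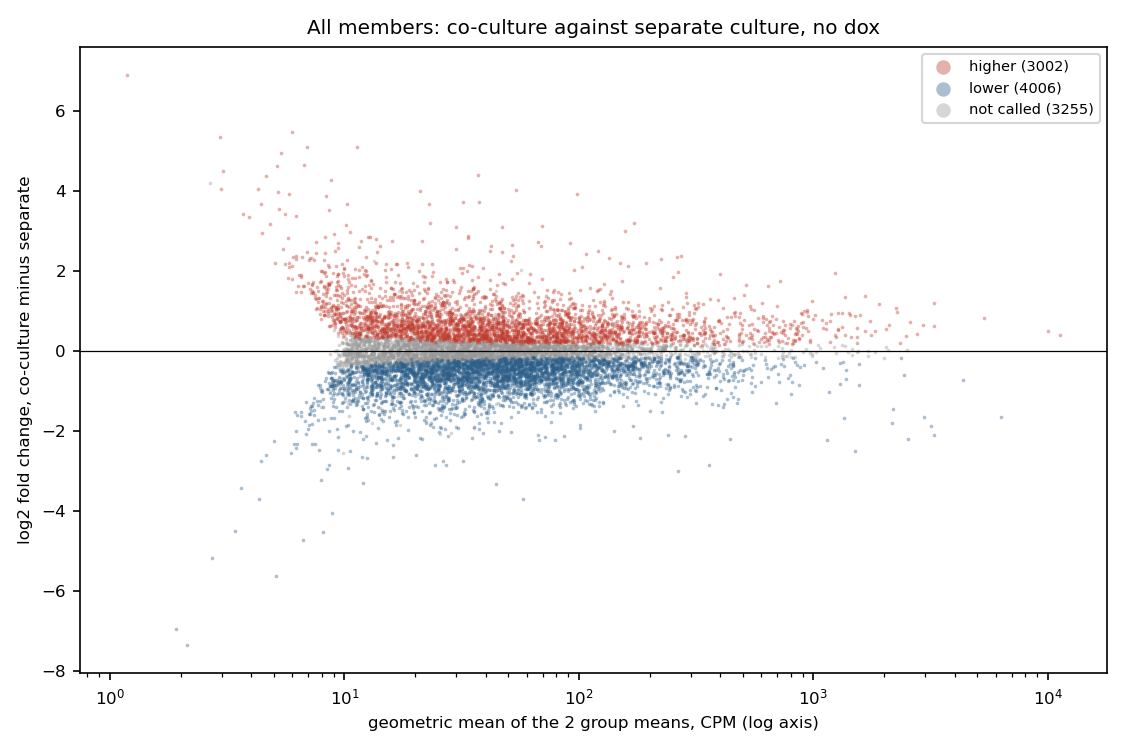
Each point is 1 of the 10263 genes, with the geometric mean of its levels in the 2 groups in CPM (log axis) against its log2 fold change, co-culture minus separate culture. The 3002 genes that rose are red, the 4006 that fell blue and the 3255 that did not pass grey, and most lie between -1.13 and 1.12, the limits of the central 90%.

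The identity of the cells was checked first. NANOG, a core pluripotency transcription factor, stood at 157, 157 and 150.4 CPM in the co-culture without dox, 133, 133 and 129.9 CPM in the co-culture with dox and 88.6, 88.5 and 85.6 CPM in separate culture. Every co-culture library was above every separate one, and NANOG rose by 0.81 ± 0.05 (edgeR adjusted p = 2.5e-07). POU5F1, its partner, stood at 161, 205 and 229 CPM in the co-culture and 116, 111 and 119 CPM in separate culture and rose by 0.78 ± 0.11 (edgeR adjusted p = 1.2e-04), although reads of this gene may be shared with its pseudogenes. SOX2 did not pass, at 150.2, 154 and 138 CPM in the co-culture and 134, 139 and 144 CPM in separate culture, with ranges that overlapped (0.07 ± 0.06, edgeR adjusted p = 0.38). Under upper quartile scaling it passed at 0.17 (edgeR adjusted p = 0.047).

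Other genes of the same list moved the other way. Of 16 core pluripotency genes, 5 rose, 9 fell and 2 did not pass, with a median of -0.26. L1TD1, an RNA-binding protein of human pluripotent cells, stood at 205, 189.5 and 213 CPM in the co-culture and 477, 496 and 512 CPM in separate culture, a fall of 1.30 with no overlap. DNMT3B, the de novo DNA methyltransferase that marks the primed state, fell too (-1.21 ± 0.10), as did the zinc finger factors ZSCAN10 (-1.09 ± 0.13) and PRDM14 (-1.22 ± 0.26). TDGF1, the co-receptor of NODAL, rose (0.65 ± 0.05), and so did FOXD3 (0.97 ± 0.14). In the co-culture with dox the median of the list against separate culture was 0.25.

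Genes of the primed state split as well. Of 15 on that list 5 rose and 6 fell. OTX2, a homeobox factor of the primed epiblast and anterior embryo, stood at 101, 82.05 and 85.997 CPM in the co-culture without dox, 40.1, 34.8 and 38.4 CPM in the co-culture with dox and 12.6, 12.8 and 12.8 CPM in separate culture. The 3 groups did not overlap, and OTX2 rose by 2.81 ± 0.09 (edgeR adjusted p = 1.1e-09). TCF7L1, a repressor of WNT targets, rose (1.33 ± 0.09), and so did ZIC2 (1.04 ± 0.06), while the methyltransferase DNMT3A fell (-1.14 ± 0.11), as did VRTN (-0.69 ± 0.08) and FGF2 (-0.59 ± 0.06). Of the naive-state list only 4 genes reached 10 CPM. Among these, NR0B1, a nuclear receptor, stood at 21.2, 20.5 and 21.7 CPM in the co-culture and 0.923, 1.31 and 0.830 CPM in separate culture and rose by 4.36 ± 0.21, KLF5 rose (0.90 ± 0.10), FGF4 fell (-2.16 ± 0.25) and TFAP2C fell (-0.23 ± 0.08). NR0B1 met the level rule only through the co-culture and FGF4 only through separate culture, where each is high. Of the 2 naive-state genes at 10 CPM in all 6 libraries 1 rose and 1 fell.

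Genes known to respond to low oxygen rose in the co-culture. All 17 hypoxia targets outside glycolysis that reached 10 CPM rose, with a median of 2.14, beside the 29.3% that rose among all genes described. Of these 14 were at 10 CPM in all 6 libraries, and all 14 rose. NDRG1, a stress-response gene, stood at 154, 164 and 197 CPM in the co-culture without dox, 19.998, 19.6 and 24.04 CPM in the co-culture with dox and 8.13, 7.73 and 8.44 CPM in separate culture. That is a 21.1-fold rise in the co-culture without dox (4.40 ± 0.12, edgeR adjusted p = 3.3e-10), with no overlap between any 2 groups. LOX, the enzyme that cross-links collagen and elastin, stood at 42.9, 38.5 and 40.1 CPM in the co-culture without dox, 2.88, 2.96 and 1.98 CPM in the co-culture with dox and 0.431, 1.72 and 1.39 CPM in separate culture. It rose by 5.09 ± 0.48, and its separate-culture level was near 1 CPM and varied between libraries.

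Other targets moved alike. P4HA1 and P4HA2, the collagen prolyl hydroxylases, rose by 2.18 ± 0.07 and 3.09 ± 0.08. P4HA2 stood at 92.1, 83.3 and 86.9 CPM in the co-culture and 10.1, 10.9 and 9.56 CPM in separate culture. The mitophagy receptors BNIP3 and BNIP3L rose by 2.35 ± 0.09 and 1.22 ± 0.06. EGLN1 and EGLN3, the oxygen-sensing hydroxylases that are themselves targets, rose by 1.93 ± 0.10 and 1.96 ± 0.08. MXI1, an antagonist of MYC, rose by 2.14 ± 0.09, and INSIG2, a brake on sterol synthesis, by 2.86 ± 0.10. VEGFA, the blood vessel growth factor, stood at 43.8, 50.3 and 53.97 CPM in the co-culture without dox, 62.2, 58.1 and 67.9 CPM in the co-culture with dox and 23.2, 21.8 and 21.5 CPM in separate culture, so it was above separate culture in both co-cultures. The smallest rises were in KDM3A, a histone demethylase (0.53 ± 0.06), and ADM, adrenomedullin (0.63 ± 0.09). The remaining tested targets, CA9, ANGPTL4 and ANKRD37, did not meet the level rule and also rose. Measured against the mean of the separate cultures, the median of the list in log2 CPM was 2.22, 2.20 and 2.06 in the co-culture libraries and 0.0091, 0.028 and -0.033 in the separate ones. With dox the median against separate culture was 0.61.

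Glycolysis followed in the same direction. Of 23 genes for glucose and lactate transport and glycolytic enzymes, 21 rose, 1 fell and 1 did not pass, with a median of 0.82. SLC16A3, which exports lactate, stood at 422, 408 and 501 CPM in the co-culture without dox, 61.7, 61.6 and 68.4 CPM in the co-culture with dox and 55.9, 52.6 and 57.2 CPM in separate culture. It rose 7.97-fold without dox (3.00 ± 0.08, edgeR adjusted p = 3.7e-10), while the values of the co-culture with dox lay close above those of separate culture. PFKFB4, which makes an activator of phosphofructokinase, rose by 2.63 ± 0.09, the enolase ENO2 by 2.28 ± 0.06, ALDOC by 2.02 ± 0.07, the kinase PGK1 by 1.94 ± 0.07 and LDHA, which makes lactate, by 1.74 ± 0.07. SLC2A1, the main glucose transporter, stood at 1689.9, 1336 and 1525 CPM in the co-culture without dox, 609.9, 562 and 661 CPM in the co-culture with dox and 895, 886 and 933 CPM in separate culture. The co-culture without dox was above both other groups, and the co-culture with dox was below separate culture. GAPDH, often used as a loading control and a gene with many pseudogenes, rose by 0.82 ± 0.06. PFKM did not pass (0.03 ± 0.09), and SLC16A1, another carrier of lactate, fell (-0.16 ± 0.06). In the co-culture with dox the median of the list against separate culture was 0.14.

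**Figure D2:**
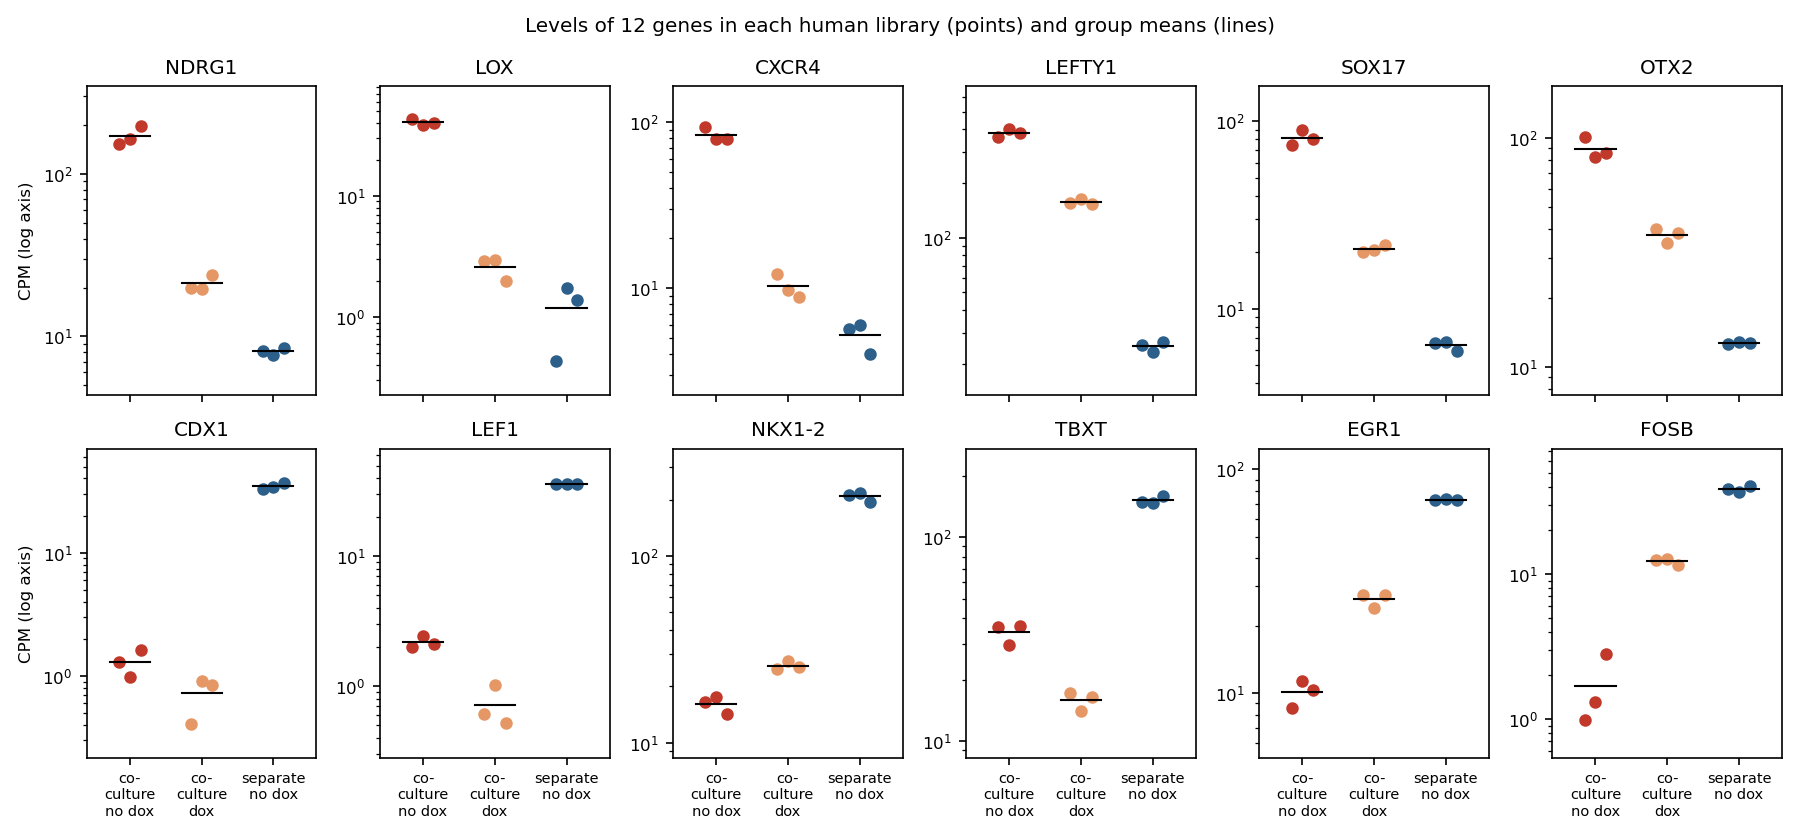
Points are the 3 libraries of each human group and lines the group means, in CPM on a log axis, for 12 genes. In the upper row the co-culture without dox is the highest group for each gene and in the lower row separate culture is the highest, with NDRG1 at 154 to 197 CPM in the co-culture and about 8 CPM in separate culture.

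Messenger RNAs encoded by the mitochondrial genome moved opposite to glycolysis. All 13 fell, with a median of -1.87, beside the 39.0% that fell among all genes described. MT-CO1, a subunit of cytochrome oxidase, stood at 3599, 3119 and 3968 CPM in the co-culture without dox, 11655, 9255 and 11218 CPM in the co-culture with dox and 11658, 10908 and 10968 CPM in separate culture. It fell by 1.66 in the co-culture without dox (SE 0.09, edgeR adjusted p = 7.9e-08), while the co-culture with dox overlapped separate culture. MT-CYB, of complex III, fell by 2.51, MT-ATP6, of the ATP synthase, by 2.21, and MT-ND3, the smallest fall, by 0.49. The largest falls were in MT-ND4L and MT-ATP8, which overlap neighbouring genes, so their counts are uncertain. Together these messages held 1.40, 1.37 and 1.55% of counts in the co-culture without dox, 6.22, 4.54 and 5.55% with dox and 5.44, 5.16 and 4.96% in separate culture.

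Respiratory chain subunits encoded in the nucleus did not fall with them. Of 30, 17 rose, 1 fell and 12 did not pass, with a median of 0.29. COX6C stood at 201, 300.1 and 204 CPM in the co-culture and 104, 102 and 97.3 CPM in separate culture and rose by 1.21 ± 0.18, with COX7A2 (0.84 ± 0.10) and NDUFA4 (0.78 ± 0.12) next. SDHA, of complex II, was the one that fell (-0.41 ± 0.07). Transcript length moved with the fold change across the genes described, and its part in these results was not tested beyond the values given here. Cut into 5 equal classes by the length of the mouse transcript of the same symbol (87.8% of genes), the median log2 fold change was 0.15, 0.019, -0.12, -0.24 and -0.29 with increasing length, and Spearman's rho was -0.248 across genes, which are not independent replicates. After the median of its length class was taken from each gene, the median of the list was 0.19, that of glycolysis 0.92 and that of the hypoxia targets 2.22.

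**Figure D3:**
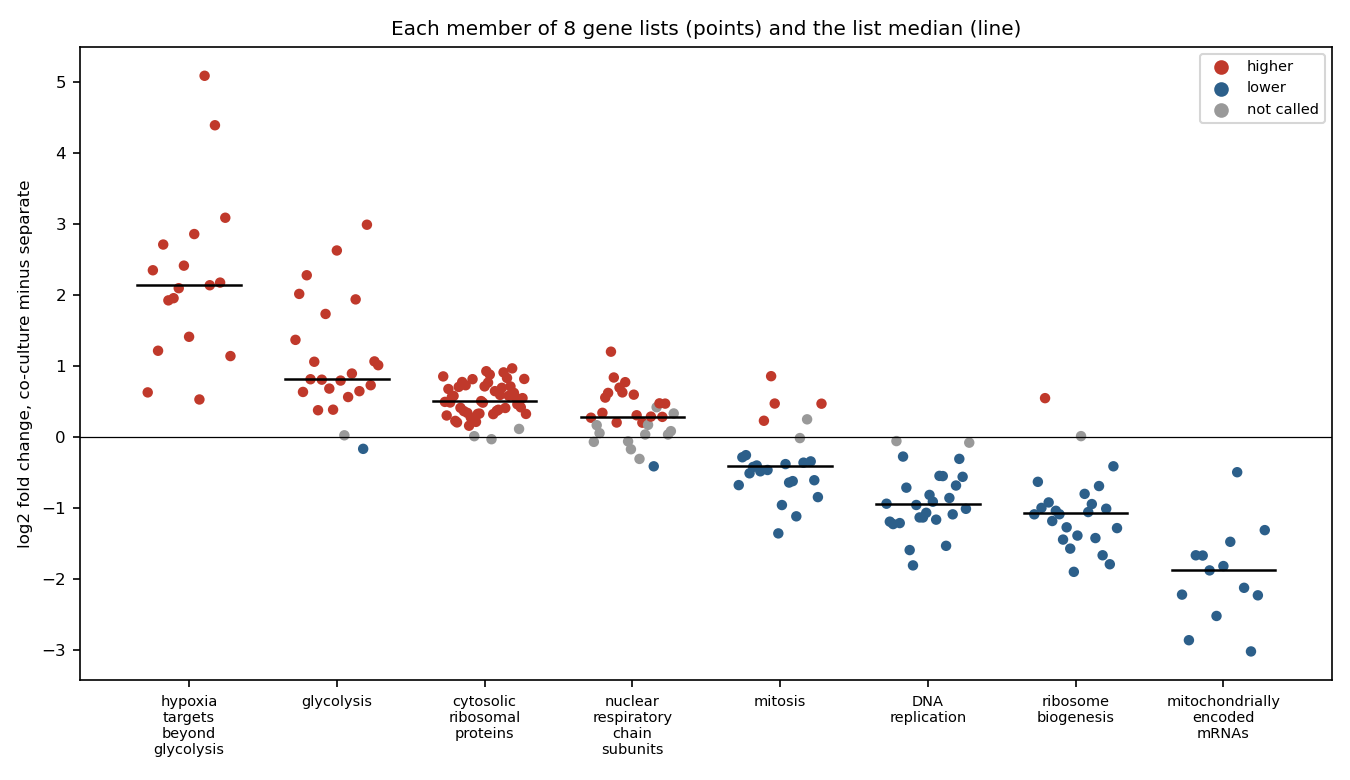
Each point is 1 gene of the named list, at its log2 fold change, co-culture minus separate culture, coloured by its call, and lines are list medians. All hypoxia targets lie above 0 and all mitochondrially encoded mRNAs below it, with medians of 2.14 and -1.87.

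Several of the largest falls were in WNT signalling. Of the 12 genes with the largest decreases, WNT3A and WNT5B are ligands, RSPO3 is a secreted amplifier and LEF1 is a transcription factor of the pathway. Of these WNT3A, RSPO3 and LEF1 met the level rule only through separate culture, where they are high. WNT5B stood at 13.6, 13.5 and 14.9 CPM in the co-culture without dox, 20.7, 21.1 and 16.6 CPM in the co-culture with dox and 141, 138 and 145 CPM in separate culture. Both co-cultures were below separate culture, and without dox WNT5B fell 10.1-fold (-3.34 ± 0.10, edgeR adjusted p = 8.2e-10). RSPO3, an R-spondin, stood at 1.31, 0.203 and 0.631 CPM in the co-culture and 16.7, 16.98 and 15.02 CPM in separate culture and fell (-4.52 ± 0.79). WNT3A, a ligand of the streak and tail bud, stood at 1.70, 0.947 and 0.938 CPM in the co-culture and 16.7, 13.3 and 16.6 CPM in separate culture and fell (-3.71 ± 1.01, edgeR adjusted p = 0.024). Its call was lost with a replicate block (edgeR adjusted p = 0.052) and when any 1 of the 6 libraries was left out (0.052 to 0.078). WNT5A fell by 0.55, whereas WNT3 did not pass (0.26 ± 0.10).

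Factors and targets downstream also fell. LEF1 stood at 2.01, 2.43 and 2.12 CPM in the co-culture without dox, 0.612, 1.02 and 0.522 CPM in the co-culture with dox and 36.2, 36.01 and 36.01 CPM in separate culture, with no overlap, and fell by 4.05 without dox. TCF7, a related factor, fell too (-1.95 ± 0.10). AXIN2, the standard target of beta-catenin, stood at 31.1, 34.3 and 31.6 CPM in the co-culture without dox, 46.1, 37.6 and 45.9 CPM in the co-culture with dox and 139.9, 135 and 141 CPM in separate culture and fell 4.31-fold (-2.11 ± 0.09, edgeR adjusted p = 8.0e-09). The feedback inhibitors NKD1 (-2.75 ± 0.09) and DKK1 (-1.11 ± 0.13), the receptor-removing ligases RNF43 (-1.05 ± 0.13) and ZNRF3 (-0.67 ± 0.12), the target SP5 (-1.25 ± 0.08) and CCND1 (-0.98 ± 0.05) fell as well. In all, of 16 genes on the WNT list 4 rose, 11 fell and 1 did not pass, with a median of -1.01. Of the 13 at 10 CPM in all 6 libraries 3 rose and 9 fell. The 4 that rose on the whole list were the secreted WNT inhibitors SFRP1 (1.92 ± 0.08), FRZB (0.67 ± 0.13) and DKK4 (2.75 ± 0.15) and the receptor FZD7 (0.55 ± 0.05). SFRP1 stood at 136, 116 and 111 CPM in the co-culture without dox, 57.98, 58.3 and 59.3 CPM in the co-culture with dox and 30.1, 33.6 and 31.6 CPM in separate culture. The median of the list against separate culture was -1.61 in the co-culture with dox.

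The largest fall among the genes described was in a caudal gene, which met the level rule only through separate culture. CDX2, a caudal homeobox factor, stood at 0, 0 and 0.512 CPM in the co-culture without dox, 0.187, 0 and 0 CPM in the co-culture with dox and 24.8, 25.4 and 29.9 CPM in separate culture. It fell by 7.36 (SE 1.77, edgeR adjusted p = 0.016), an imprecise value since 2 co-culture libraries are at 0. The fitted value was -14.81 without co-culture replicate 3, the library above 0, and at its nearest to 0, -6.76, without co-culture replicate 1. Without separate replicate 2 or 3 its edgeR adjusted p was 0.051 and 0.056. CDX1, its relative, stood at 1.29, 0.979 and 1.61 CPM in the co-culture without dox, 0.408, 0.913 and 0.844 CPM in the co-culture with dox and 32.5, 33.8 and 36.9 CPM in separate culture and fell by 4.75 (SE 0.28, edgeR adjusted p = 1.3e-07). NKX1-2, a homeobox gene of the caudal epiblast, stood at 16.6, 17.6 and 14.3 CPM in the co-culture without dox, 24.8, 27.2 and 25.5 CPM in the co-culture with dox and 213, 218 and 195 CPM in separate culture and fell 13.01-fold. TBXT, brachyury, the defining factor of the primitive streak, stood at 36.1, 29.6 and 36.7 CPM in the co-culture without dox, 17.2, 14.1 and 16.5 CPM in the co-culture with dox and 148, 148 and 159.8 CPM in separate culture. Without dox it fell by 2.16 (SE 0.10, edgeR adjusted p = 1.5e-08), and with dox its levels were lower still. EVX1 (-3.32 ± 0.31) and MIXL1 (-0.87 ± 0.07), streak homeobox factors, and APLNR, the apelin receptor of early mesoderm (-1.94 ± 0.09), fell. Of 11 HOX genes tested at any level, 0 rose and 5 fell.

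Several endoderm and anterior streak genes rose, though some met the level rule only through the co-culture, where they are high. SOX17, the endoderm-defining factor, stood at 75.003, 89.8 and 80.1 CPM in the co-culture without dox, 20.1, 20.5 and 21.8 CPM in the co-culture with dox and 6.60, 6.66 and 5.97 CPM in separate culture. The 3 groups did not overlap, and without dox SOX17 rose 12.7-fold (3.66 ± 0.10, edgeR adjusted p = 3.3e-10). CXCR4, a chemokine receptor used to sort endoderm, stood at 93.9, 79.5 and 78.8 CPM in the co-culture without dox, 12.2, 9.72 and 8.85 CPM in the co-culture with dox and 5.66, 5.97 and 4.002 CPM in separate culture and rose by 4.001 ± 0.17. GATA6, an endoderm factor, stood at 106, 107 and 101 CPM in the co-culture without dox, 18.1, 18.95 and 18.7 CPM in the co-culture with dox and 16.7, 18.1 and 16.4 CPM in separate culture. It rose 6.09-fold without dox, while the values of the co-culture with dox lay close above those of separate culture (0.10 ± 0.07). CER1 rose by 2.32 ± 0.18 and PRDM1 by 1.92 ± 0.16, and the laminin LAMB1 fell (-0.85 ± 0.07), so that 5 of the 6 endoderm genes that met the level rule rose. Only 3 of these 6 were at 10 CPM in all 6 libraries, of which 2 rose and 1 fell, so the count is in part set by the rule. On the primitive streak list of 16, the 5 that rose were GSC and LHX1, of the anterior streak and organizer (2.85 ± 0.16 and 2.74 ± 0.12), DKK4, EOMES (0.37 ± 0.06) and FOXA2 (0.32 ± 0.11). The other 9 that passed fell. Of the 9 streak genes at 10 CPM in all 6 libraries 1 rose and 6 fell. EOMES stood at 145, 146 and 153 CPM in the co-culture without dox, 36.2, 35.1 and 40.8 CPM in the co-culture with dox and 109.7, 118 and 113 CPM in separate culture, so it was highest in the co-culture without dox and lowest in the co-culture with dox.

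NODAL itself, the ligand, stood at 89.4, 81.9 and 82.97 CPM in the co-culture and 152, 152 and 143 CPM in separate culture and fell by 0.82. LEFTY1, its secreted inhibitor and target, stood at 362, 400.3 and 383 CPM in the co-culture without dox, 157, 164 and 155 CPM in the co-culture with dox and 25.7, 23.5 and 26.8 CPM in separate culture. It rose 14.97-fold without dox (3.90 ± 0.08, edgeR adjusted p = 4.0e-11), and the 3 groups were far apart. LEFTY2, its relative, rose by 2.04 ± 0.13. FST, follistatin, which binds activin, stood at 127, 154 and 129 CPM in the co-culture and 622, 609.9 and 547 CPM in separate culture and fell by 2.13. In the BMP branch, the ligand BMP2 stood at 102, 99.1 and 89.02 CPM in the co-culture without dox, 20.2, 21.8 and 21.4 CPM in the co-culture with dox and 28.8, 28.2 and 25.6 CPM in separate culture and rose by 1.80 ± 0.08, while BMP4 fell (-0.62 ± 0.11). The inhibitory SMADs SMAD6 and SMAD7 rose by 1.57 ± 0.10 and 0.91 ± 0.07. Among the ID genes, inhibitors of differentiation that follow BMP, ID1 rose (1.06 ± 0.08), ID2 (-1.57 ± 0.07) and ID4 (-1.57 ± 0.11) fell and ID3 did not pass (-0.21 ± 0.14). Over 18 NODAL and BMP genes, 12 rose, 5 fell and 1 did not pass, with a median of 0.60, and with dox the median against separate culture was -0.35.

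**Figure D4:**
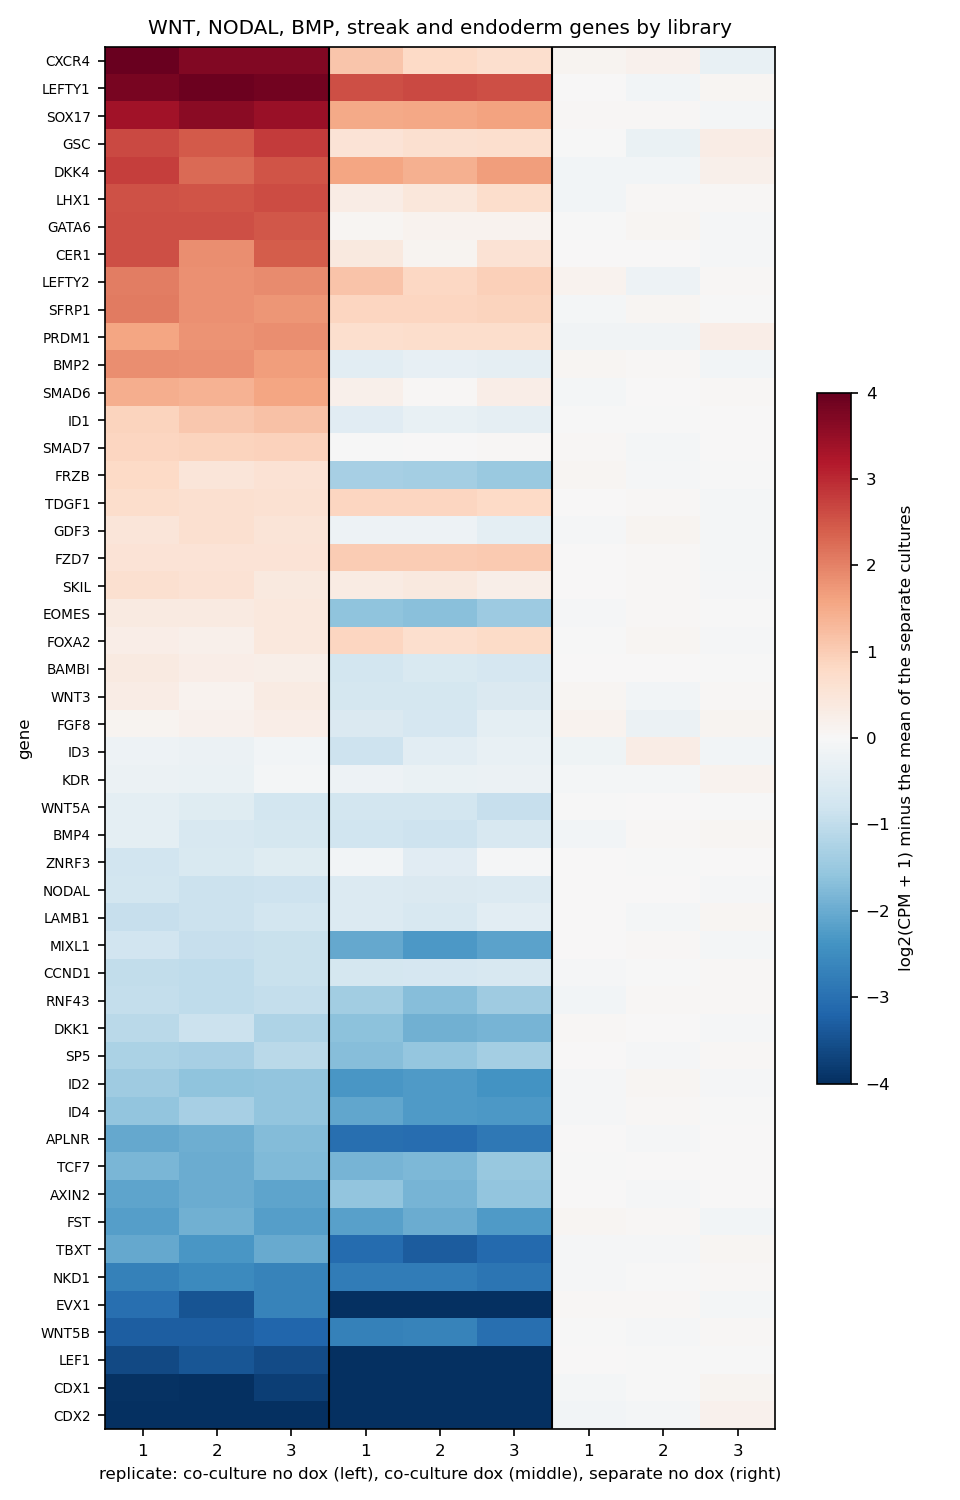
Rows are the reported WNT, NODAL, BMP, streak and endoderm genes at 10 CPM, and columns the libraries of the co-culture without dox, the co-culture with dox and separate culture. Colour is log2(CPM + 1) minus the mean of the separate cultures, cut at -4 and 4, and runs from CXCR4 and LEFTY1 at the top, highest in the co-culture without dox, to CDX1 and CDX2 at the bottom, lowest in both co-cultures.

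Immediate early genes, which growth factors and stress switch on within minutes, were more often lower than higher. EGR1 stood at 8.598, 11.3 and 10.3 CPM in the co-culture without dox, 27.3, 24.03 and 27.5 CPM in the co-culture with dox and 73.03, 73.9 and 73.1 CPM in separate culture. It fell 7.32-fold without dox (-2.87 ± 0.11, edgeR adjusted p = 4.2e-09), and the 3 groups did not overlap. FOSB stood at 0.978, 1.30 and 2.80 CPM in the co-culture without dox, 12.5, 12.7 and 11.5 CPM in the co-culture with dox and 38.7, 36.98 and 40.3 CPM in separate culture and fell 23.1-fold, and FOS, its relative, fell by 2.25. JUNB (-1.07 ± 0.14), SRF (-1.06 ± 0.07), KLF6 (-0.88 ± 0.09) and JUN (-0.45 ± 0.07) fell too. JUND (1.196 ± 0.12), BTG2 (0.95 ± 0.08) and IER3 (0.64 ± 0.08) rose. Of 19 genes on the list 3 rose, 11 fell and 5 did not pass, with a median of -0.42. Of the 15 at 10 CPM in all 6 libraries 3 rose and 7 fell, beside 39.4% that fell among all such genes. FOSB met the level rule only through separate culture, where it is high, and EGR1 was under 10 CPM in co-culture replicate 1.

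FGF and ERK feedback genes did not share a direction. Of 18, 8 rose and 8 fell. SPRY1, a feedback inhibitor, stood at 56.9, 55.7 and 48.7 CPM in the co-culture and 15.1, 18.1 and 13.8 CPM in separate culture and rose by 1.77 ± 0.11, and PHLDA1 rose by 1.41 ± 0.06. The phosphatases DUSP4 (0.67 ± 0.10) and DUSP6 (0.38 ± 0.06) rose, while DUSP5 (-0.27 ± 0.06), the receptor FGFR1 (-0.75 ± 0.08), ETV4 (-0.54 ± 0.06) and FGF2 fell. Among YAP and TEAD targets 8 of 17 rose and 5 fell. ANKRD1 stood at 132, 94.5 and 109 CPM in the co-culture and 21.02, 20.6 and 18.2 CPM in separate culture and rose by 2.47 ± 0.11, and CCN2 (1.10 ± 0.05) and the receptor kinase AXL (1.16 ± 0.07) rose too, while AMOTL2 fell (-0.74 ± 0.07).

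Ribosome biogenesis factors, which make and assemble ribosomal RNA in the nucleolus, counted 24, of which 22 fell, 1 rose and 1 did not pass, with a median of -1.07. NOP56, of the box C/D particle, stood at 93.2, 73.7 and 100.1 CPM in the co-culture without dox, 234, 222 and 239 CPM in the co-culture with dox and 321, 322 and 341 CPM in separate culture and fell by 1.89. UTP20 (-1.79 ± 0.08), RRS1 (-1.66 ± 0.11), NOP58 (-1.38 ± 0.07), the nucleolar protein NCL (-1.03 ± 0.05) and POLR1A, the large subunit of RNA polymerase I (-1.05 ± 0.12), fell as well. FBL, the methylase of the same particle as NOP56, rose (0.55 ± 0.07), and NPM1 did not pass (0.02 ± 0.08). With dox the median against separate culture was -0.31.

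Cytosolic ribosomal protein genes mostly rose. Of 49, 46 rose, 0 fell and 3 did not pass, with a median of 0.51. RPLP1 stood at 1749.6, 1809 and 1727 CPM in the co-culture and 922, 932 and 899 CPM in separate culture and rose by 0.93 ± 0.07, RPL10 by 0.86 ± 0.05 and RPS3 by 0.97 ± 0.09. RPS6, RPS14 and RPL4 did not pass. Ribosomal protein messages held 8.28, 8.81 and 8.31% of counts in the co-culture without dox, 7.06, 7.99 and 7.02% with dox and 5.76, 5.78 and 5.62% in separate culture, with no overlap between the groups. These genes have short transcripts and many pseudogenes that may share reads. With the median of its length class taken from each, the median of the list was 0.35, and that of the ribosome biogenesis list was -0.999.

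Nearly all DNA replication genes fell. Of 26, 0 rose, 24 fell and 2 did not pass, with a median of -0.94 (-0.90 after the length step). MCM4, of the replicative helicase, stood at 242, 220.1 and 223 CPM in the co-culture without dox, 385, 378 and 399 CPM in the co-culture with dox and 493, 488 and 506 CPM in separate culture and fell by 1.13, in every library below separate culture. The other helicase subunits MCM2 to MCM7 fell by between 0.81 and 1.13. CDC6, which loads the helicase, fell by 1.22, MCM10 by 1.80 and POLA1, of the primase-polymerase, by 1.53. CCNE1, the G1/S cyclin, fell by 0.93. CDT1 and TYMS did not pass.

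Most mitosis genes fell. Of 24, 4 rose, 18 fell and 2 did not pass, with a median of -0.41. CENPE, a kinetochore motor, stood at 38.6, 37.8 and 38.7 CPM in the co-culture and 95.5, 99.4 and 96.9 CPM in separate culture and fell by 1.35, with KIF23 (-1.11 ± 0.06), CENPF (-0.95 ± 0.09) and TTK (-0.84 ± 0.06) next. CDK1, the mitotic kinase, stood at 168, 162 and 136 CPM in the co-culture and 87.2, 89.3 and 78.1 CPM in separate culture and rose by 0.86 ± 0.09, and UBE2C (0.47 ± 0.08), CENPA (0.48 ± 0.09) and CCNB2 (0.23 ± 0.05) rose as well. MYC stood at 79.7, 83.9 and 77.3 CPM in the co-culture and 100.4, 102 and 96.3 CPM in separate culture and fell by 0.32, MYCN fell by 1.10, and the MYC target ODC1, of polyamine synthesis, fell by 1.42. The whole MYC list of 16 had 3 higher, among them MXI1 and LDHA named above, and 7 lower.

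The p53 targets were mostly higher. CDKN1A, the cell cycle inhibitor p21, stood at 82.8, 89.2 and 94.3 CPM in the co-culture without dox, 55.1, 53.8 and 54.5 CPM in the co-culture with dox and 38.2, 36.6 and 35.7 CPM in separate culture. It rose 2.39-fold without dox (1.26 ± 0.07, edgeR adjusted p = 6.5e-08), with no overlap between any 2 groups. GDF15, a stress-induced cytokine, rose by 1.74 ± 0.11, PMAIP1, the death factor NOXA, by 1.32 ± 0.07, BBC3, the death factor PUMA, by 0.94 ± 0.11 and BAX by 0.65 ± 0.08. On the list of 24, 17 rose, 6 fell and 1 did not pass, with a median of 0.47. AEN, a nuclease, fell (-0.89 ± 0.10). Among 21 apoptosis regulators 7 rose and 4 fell, including the survival factor MCL1 (-0.34 ± 0.05). Upper quartile scaling left 2 lower.

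Among 12 cytosolic heat shock genes 1 rose, 7 fell and 4 did not pass, with a median of -0.63. HSPA8, the constitutive HSP70, stood at 809.97, 709 and 753 CPM in the co-culture without dox, 1253, 1272 and 1296 CPM in the co-culture with dox and 2429, 2416 and 2451 CPM in separate culture and fell 3.23-fold. HSPH1, its exchange factor, stood at 71.8, 69.4 and 70.8 CPM in the co-culture without dox, 144, 161 and 142 CPM in the co-culture with dox and 283, 286 and 281 CPM in separate culture, so that the co-culture without dox lay lowest, and fell by 2.01. HSPB1, a small heat shock protein, rose (1.13 ± 0.07). In the endoplasmic reticulum, 11 of 19 unfolded protein response genes fell and 1 rose, XBP1 (0.36 ± 0.07). HSPA5, the chaperone BiP, stood at 567, 527 and 574 CPM in the co-culture and 1168, 1154 and 1159.9 CPM in separate culture and fell by 1.07, and CALR (-0.78 ± 0.07) and DNAJB11 (-0.82 ± 0.07) fell. Under upper quartile scaling 4 of this list were higher.

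The integrated stress response, which ATF4 carries out, showed no common direction without dox. ATF4 stood at 342, 293 and 359.9 CPM in the co-culture without dox, 509, 536 and 536 CPM in the co-culture with dox and 360.4, 351 and 370.4 CPM in separate culture, and did not pass without dox (-0.13 ± 0.07, edgeR adjusted p = 0.15). Without co-culture replicate 3 it passed at -0.19 (edgeR adjusted p = 0.036). Of 24 targets 11 rose and 6 fell. DDIT4, also a hypoxia target, stood at 166, 166 and 185 CPM in the co-culture and 23.5, 27.2 and 27.6 CPM in separate culture and rose by 2.72 ± 0.08, and the glutathione-degrading CHAC1 (1.62 ± 0.12), STC2 (1.72 ± 0.10), VLDLR (1.33 ± 0.07) and ASNS, asparagine synthetase (0.82 ± 0.09), rose. SLC7A5 (-0.61 ± 0.08), CEBPG (-0.49 ± 0.06) and AARS1 (-0.33 ± 0.08) fell. ASNS stood at 93.7, 70.2 and 81.7 CPM in the co-culture without dox, 246, 260.4 and 247 CPM in the co-culture with dox and 47.5, 45.3 and 45.2 CPM in separate culture, highest in the co-culture with dox.

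Few interferon-stimulated genes reached 10 CPM, 6 of 26, of which 4 rose, 1 fell and 1 did not pass. Of these IFITM1, a restriction factor, stood at 1126, 1129 and 1121 CPM in the co-culture without dox, 484, 486 and 509 CPM in the co-culture with dox and 369.5, 369.7 and 359.9 CPM in separate culture and rose by 1.61 ± 0.05 (edgeR adjusted p = 5.3e-10), with every co-culture library above separate culture. IFITM3 (1.31 ± 0.06), BST2 (1.91 ± 0.10) and ISG15 (0.62 ± 0.14) rose, and STAT2 did not pass (0.06 ± 0.08). Of 22 tested at any level 6 rose and 1 fell. Of 10 sensors and adaptors of foreign RNA, 0 rose and 6 fell. ZC3HAV1, an antiviral RNA-binding protein, stood at 85.1, 88.4 and 84.4 CPM in the co-culture and 159.5, 165 and 158 CPM in separate culture and fell by 0.91, and the kinase TBK1 fell by 0.73. MAVS, the adaptor, did not pass (-0.14 ± 0.09, edgeR adjusted p = 0.21).

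Antigen presentation genes at 10 CPM numbered 5. B2M, the invariant chain of class I molecules, stood at 123, 163 and 121 CPM in the co-culture without dox, 69.96, 74.9 and 58.5 CPM in the co-culture with dox and 67.4, 61.3 and 58.6 CPM in separate culture. It rose by 1.11 ± 0.13, as did HLA-C (1.001 ± 0.16) and HLA-E (0.89 ± 0.15), while CALR fell and ERAP1 did not pass. HLA genes resemble each other, so the split of reads among them is uncertain. Of 12 NF-kB genes 5 rose and 6 fell. NFKBIA, the inhibitor that NF-kB itself induces, stood at 51.6, 70.3 and 67.9 CPM in the co-culture and 25.7, 23.1 and 24.1 CPM in separate culture and rose by 1.37 ± 0.13, and the chemokine CCL2 (1.62 ± 0.19) and RELA (0.77 ± 0.09) rose. MYD88, the adaptor of Toll-like receptors, stood at 22.6, 15.8 and 18.7 CPM in the co-culture and 36.4, 36.8 and 37.5 CPM in separate culture and fell by 0.97, with IRAK1 (-0.67 ± 0.12) and NFKB1 (-0.97 ± 0.15) also lower.

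Matrix and cytoskeletal genes mostly rose. Of 16 genes on the fibroblast and matrix list at 10 CPM, 14 rose, 1 fell and 1 did not pass, with a median of 0.84. LOX, named above, is among them. COL5A2, a collagen chain, stood at 810.5, 777 and 765 CPM in the co-culture without dox, 266, 255 and 268 CPM in the co-culture with dox and 200.04, 201 and 216 CPM in separate culture. It rose 3.79-fold without dox (1.92 ± 0.05, edgeR adjusted p = 3.7e-10). The intermediate filament vimentin, VIM (1.17 ± 0.05), the calponin TAGLN (1.19 ± 0.05), COL5A1 (1.22 ± 0.08), COL6A2 (1.04 ± 0.10), SPARC (0.93 ± 0.05) and COL1A1 (0.75 ± 0.12) rose, and PDGFRB fell (-1.11 ± 0.17). Some fibroblast markers were near 0 in every human library and others were not. COL1A1 averaged 259 CPM in the co-culture and 153 CPM in separate culture, and TAGLN 918 and 399 CPM. DCN, decorin, was at 0 CPM in all 9, COL3A1 reached at most 0.52 CPM and LUM at most 1.68 CPM. The summed level of the whole list was 8859.5, 8377 and 8948 CPM in the co-culture and 4449.8, 4487 and 4494 CPM in separate culture. The part of any fibroblast RNA in these values was not tested beyond this. With dox the median of the list against separate culture was -0.19.

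Adhesion genes split. CDH1, E-cadherin, stood at 118, 137 and 126 CPM in the co-culture and 77.3, 77.6 and 76.5 CPM in separate culture and rose by 0.71 ± 0.07, and the tight junction claudin CLDN7 (2.02 ± 0.11) and EPCAM (0.49 ± 0.07) rose. CDH11, a mesenchymal cadherin, stood at 24.6, 22.3 and 21.6 CPM in the co-culture and 90.5, 91.2 and 91.5 CPM in separate culture and fell by 2.004, with ZEB2, a repressor of E-cadherin, lower as well (-2.24 ± 0.13). VIM, the intermediate filament named above, is on this list too and rose (1.17 ± 0.05), unlike CDH11 and ZEB2. On this list of 15, 7 rose and 4 fell.

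Markers of other lineages were sparse. Of the macrophage list 1 gene reached 10 CPM, LAPTM5, at 18.2, 17.9 and 17.8 CPM in the co-culture and 3.54, 4.49 and 3.04 CPM in separate culture, which rose by 2.28 ± 0.16. PTPRC, C1QA and C1QB were at 0 in all 9 human libraries, and the summed level of the macrophage list was 20.6, 21.5 and 22.1 CPM in the co-culture and 6.77, 6.42 and 5.13 CPM in separate culture. The defining neuroectoderm factors PAX6 and SOX1 were under 0.3 CPM throughout, and of the 3 genes of that list at 10 CPM only POU3F1 rose (0.76 ± 0.13). In the amnion and trophoblast list the keratins KRT8 (-0.15 ± 0.09) and KRT18 (-0.08 ± 0.06) did not pass. Of 5 neural crest genes, MSX1 (-2.60 ± 0.29) and SOX9 (-2.03 ± 0.29) fell and ETS1 (0.66 ± 0.07) and FOXD3 rose. MSX1 met the level rule only through separate culture and FOXD3 only through the co-culture, where each is high. Of the 2 neural crest genes at 10 CPM in all 6 libraries 1 rose and 0 fell. SOX18, a factor of blood vessels, stood at 12.4, 11.1 and 12.9 CPM in the co-culture without dox, 1.47, 0.993 and 2.81 CPM in the co-culture with dox and 0.794, 0.579 and 0.830 CPM in separate culture and rose 16.3-fold. VWF, a clotting factor of endothelium, stood at 11.1, 12.2 and 13.1 CPM in the co-culture and 1.21, 0.684 and 1.47 CPM in separate culture and rose by 3.43 ± 0.27, whereas the receptors TEK (-0.68 ± 0.09) and KDR (-0.21 ± 0.07) fell. SOX18 and VWF met the level rule only through the co-culture, where they are high. The 2 genes of the endothelial and blood list at 10 CPM in all 6 libraries both fell. Among 5 neuron genes STMN2 (0.85 ± 0.09) and GAP43 (0.20 ± 0.07) rose.

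Several of the 12 largest increases belonged to none of these lists. All 12 met the level rule only through the co-culture, where they are high, so the ranking is in part set by the rule. NRN1, neuritin, a secreted neuronal protein, stood at 14.1, 14.1 and 10.7 CPM in the co-culture without dox, 0.272, 0.913 and 0.490 CPM in the co-culture with dox and 0.121, 0.0483 and 0.155 CPM in separate culture, a 118-fold rise without dox (6.88 ± 0.53). UPK1A, a uroplakin of bladder epithelium, stood at 34.8, 41.3 and 43.3 CPM in the co-culture without dox, 3.52, 4.47 and 4.06 CPM in the co-culture with dox and 0.650, 0.716 and 1.31 CPM in separate culture and rose by 5.47 ± 0.26. CD48, a surface protein known from leukocytes, stood at 17.3, 21.8 and 17.5 CPM in the co-culture without dox, 3.49, 3.72 and 3.50 CPM in the co-culture with dox and 0.325, 0.346 and 0.714 CPM in separate culture. It rose by 5.34 ± 0.30, with both co-cultures above separate culture. SHISA2, which retains WNT and FGF receptors inside the cell, stood at 68.2, 72.96 and 57.96 CPM in the co-culture without dox, 19.4, 14.7 and 15.4 CPM in the co-culture with dox and 1.42, 2.46 and 1.91 CPM in separate culture and rose by 5.10 ± 0.21. APLN, apelin, the ligand of APLNR, stood at 37.7, 40.3 and 37.3 CPM in the co-culture without dox, 25.2, 22.4 and 24.8 CPM in the co-culture with dox and 1.75, 2.63 and 1.58 CPM in separate culture and rose by 4.26 ± 0.17. ERBB4, a receptor for neuregulins, rose by 4.64 ± 0.26 to 35.6, 32.4 and 33.2 CPM in the co-culture, against 0.794, 1.81 and 1.42 CPM in separate culture. B3GNT4, a glycosyltransferase, varied between co-culture libraries, at 34.4, 22.4 and 20.4 CPM in the co-culture and 0.764, 0.378 and 1.99 CPM in separate culture (4.61 ± 0.92). CCDC81, a coiled-coil protein, rose by 4.04 ± 0.29.

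Among the 12 largest decreases, 4 lay outside the lists and outside WNT signalling. All 4 met the level rule only through separate culture, where they are high. LRRC55, an accessory subunit of potassium channels, stood at 1.502, 0.826 and 0.970 CPM in the co-culture and 11.7, 10.7 and 13.2 CPM in separate culture and fell by 3.44. ARHGEF10, an exchange factor for small GTPases, stood at 0.810, 0.896 and 0.481 CPM in the co-culture without dox, 43.6, 26.03 and 36.1 CPM in the co-culture with dox and 45.95, 13.4 and 49.01 CPM in separate culture. It fell by 5.63, the separate cultures were uneven, and by limma-voom its adjusted p was 0.23. CYB5D1 stood at 0.475, 0 and 0.907 CPM in the co-culture without dox, 15.5, 14.5 and 13.04 CPM in the co-culture with dox and 19.4, 13.5 and 15.7 CPM in separate culture and fell by 5.17. PTGES3L-AARSD1, a read-through of neighbouring genes whose reads cannot be assigned with certainty, fell by 6.95 (edgeR adjusted p = 0.035) and lost its call when any library was left out (0.072 to 0.10).

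Cholesterol synthesis genes showed no common direction. Of 24, 9 rose and 7 fell. MSMO1, a methyl sterol oxidase, rose (0.70 ± 0.07), while HMGCS1, the synthase near the start of the pathway, fell (-0.46 ± 0.05). Of 7 imprinted genes 3 rose, among them CDKN1C, a cell cycle inhibitor, at 33.9, 39.3 and 33.4 CPM in the co-culture and 7.43, 9.47 and 6.73 CPM in separate culture (2.17 ± 0.14). SNRPN rose too (0.39 ± 0.06), and PLAGL1 fell (-1.17 ± 0.20). The nuclear RNAs MALAT1 (-0.91 ± 0.08) and NEAT1 (-0.86 ± 0.16) fell, as did RN7SL1, the signal recognition particle RNA with many copies (-2.19 ± 0.17). The snoRNA host genes GAS5 (0.62 ± 0.10) and SNHG5 (0.72 ± 0.11) rose and SNHG1 fell (-0.34 ± 0.08). None of the replication-dependent histone genes reached 10 CPM.

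**Figure D5:**
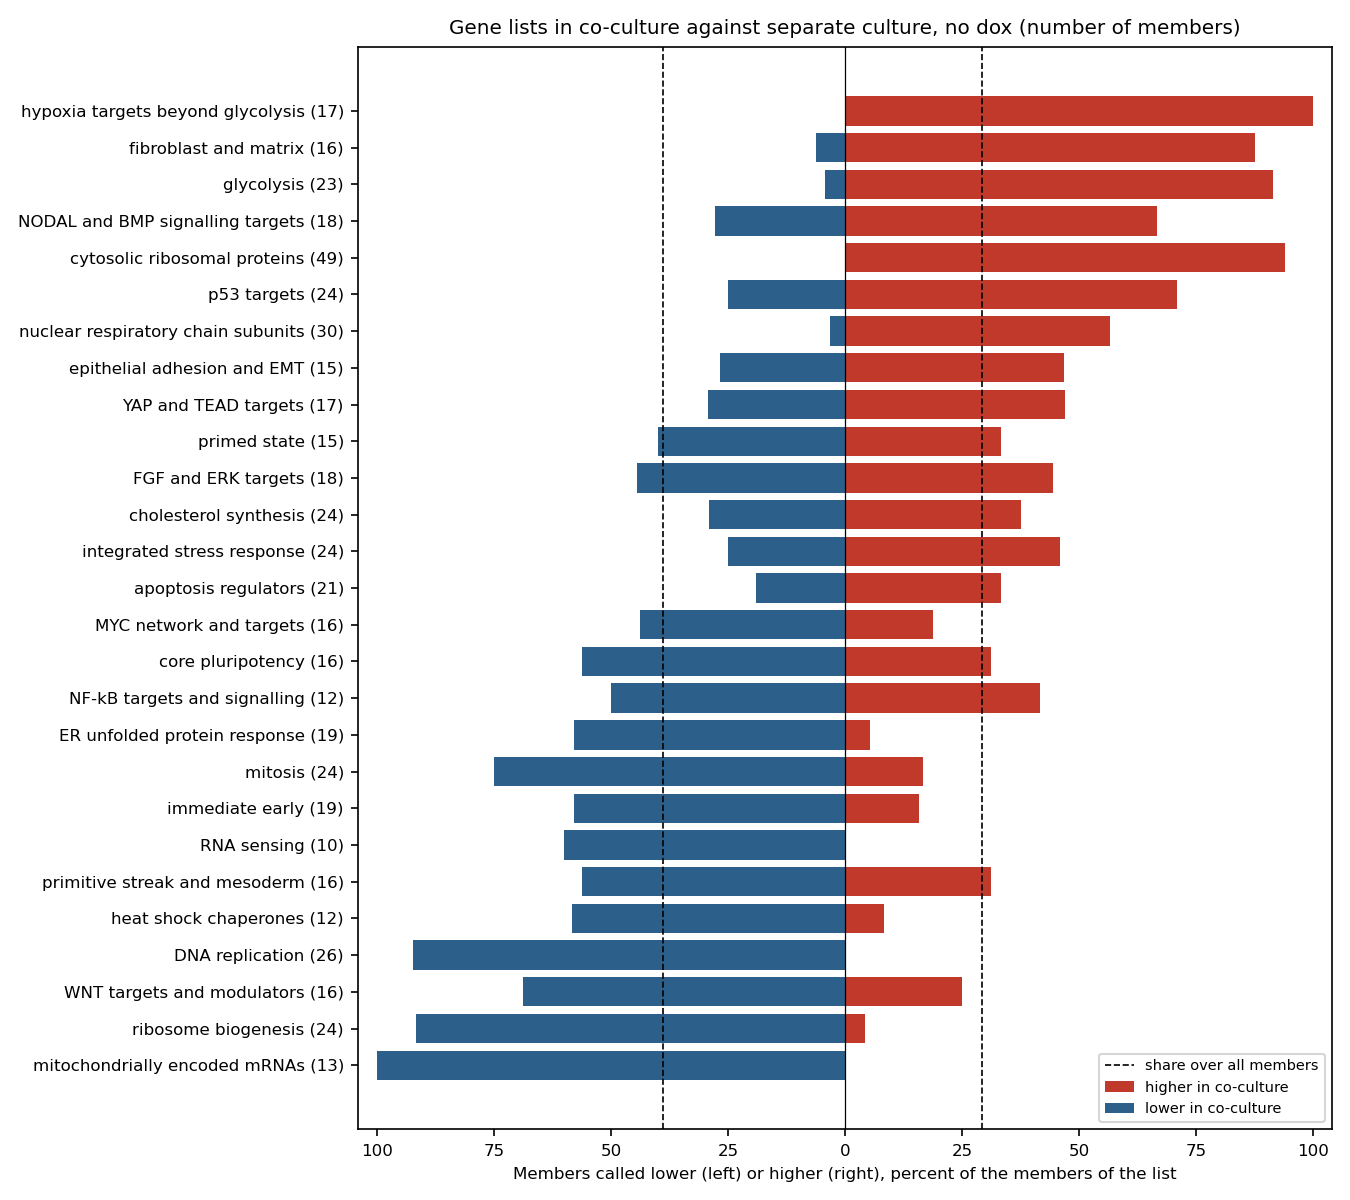
Bars give, for each list with at least 10 members at 10 CPM, the percent of its members that rose (right, red) or fell (left, blue) in co-culture against separate culture. Dashed lines mark the 29.3% higher and 39.0% lower over all 10263 genes, and lists run from hypoxia targets at the top (17 of 17 higher) to mitochondrially encoded mRNAs at the bottom (13 of 13 lower).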

How the data were processed

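RNA was sequenced in 21 libraries of the series, and the 9 human ones were used here, with the mouse ones for a check on stray reads and a few levels. The authors deposited a table for each species of whole-number estimated counts per gene. The submitters' processing notes name DESeq2 1.38.3, Trim Galore 0.6.10, StringTie 2.1.7 and HISAT2 2.1.0 and the builds GRCh38 and GRCm39, without a role for any. How human and mouse reads were told apart is not stated in the labels. Estimates of this kind can split reads among copies and overlapping genes.

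From these values edgeR 4.0.16 (R 4.3.3) fitted all 9 human libraries together, with genes kept by filterByExpr (minimum count 10, total 15), TMM scaling and a robust quasi-likelihood fit. The contrast was co-culture without dox minus separate culture without dox, with Benjamini-Hochberg adjustment over 24165 genes and a threshold of 0.05. SE was the fold change divided by the root of the F statistic. CPM used the plain library total. At the totals given above, replicates differed by more than counting noise, so the spread between libraries sets the precision and none was counted as a copy.

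Genes named in the text were the 12 largest changes each way among called genes at the level rule whose groups did not overlap (clone-named and predicted genes and pseudogenes left out), the 3 called members with the smallest p in each list, and 15 fixed genes (POU5F1, SOX2, NANOG, TBXT, CDKN1A, MYC, ATF4, ISG15, MAVS, COL1A1, EGR1, LEFTY1, MT-CO1, GAPDH and 1 gene not reported here). Other list members were added as examples. Members and lists were chosen with earlier results of these data known. The 41 lists are described by counts and medians, with no test of their own. Transcript lengths came from mouse genes of the same symbol, since no human annotation was used here, and no human sequence or coordinate is printed.

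Whether replicate numbers pair the libraries was not settled. Correlations of same-numbered deviations between the groups compared were -0.0023, 0.028 and 0.196. Those of differently numbered libraries ran from -0.116 to 0.089. The test was checked on simulated data. Alternatives covered scaling, filters, the libraries fitted, DESeq2 1.42.0, limma 3.58.1 (voom with sample weights), a replicate block, a test against a fold of 1.5, and each library left out.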

Additional observations from a re-analysis of the deposited data

How the results depend on the processing

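Direction and call held under most alternatives. Tested against a fold of 1.5, 2003 of all genes were higher and 1691 lower, and among the genes described 982 were higher and 1228 lower, a stricter question by construction. With 1 library left out, 4226 to 4743 of all genes were higher and 4344 to 5173 lower, and 2664 to 2890 of the genes described were higher and 3599 to 3996 lower. Upper quartile scaling moved the median of the genes described by 0.0957 and gave 3523 higher and 3370 lower (51.1% of those called were higher), and a filter at 10 CPM gave 3623 and 3576 (50.3%), against 42.8% higher in the fit reported, so that the balance between higher and lower depends on the scaling. With a replicate block 3126 of the genes described were higher and 4213 lower, and 5030 and 5263 of all genes. Whether the numbers pair the libraries was not settled.

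Of 129 named genes, 105 kept their direction and call at every alternative and 0 reversed. CDX2, PTGES3L-AARSD1, ARHGEF10 and WNT3A lost their call under alternatives other than the fold test, with the values given beside each, and the cause was not tested. PTGES3L-AARSD1 had an edgeR adjusted p of 0.073 with the block. Of list medians, those of FGF and ERK, apoptosis, cholesterol, integrated stress response, neural crest, neuron and primed-state genes changed sign under some alternative, and all lie near 0. The others kept their sign under every alternative run.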

Other observations

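Gene families picked by the first letters of their symbols, after the values were seen, gave further descriptions with no test of the family. Over all genes described 29.3% rose and 39.0% fell. Of 33 DDX RNA helicases, 1 rose and 29 fell, with a median log2 fold change of -0.88 (-0.67 once the median of each gene's length class was taken off). The USP deubiquitinases counted 42, of which 1 rose and 28 fell. Among 34 CEP genes, of centrosomes, 2 rose and 24 fell, and among 27 KIF genes, motors of microtubules, 1 rose and 20 fell. Of 33 RBM genes for RNA-binding proteins, 2 rose and 25 fell. The ZNF zinc finger genes counted 270, with 40 higher and 134 lower and a median of -0.35. Among families of membrane traffic, of 53 RAB GTPases 29 rose and 11 fell, with a median of 0.29 (0.31 after the length step). Of 30 VPS genes, of vacuolar protein sorting, 7 rose and 16 fell, with a median of -0.25. After the length step the VPS median was near 0, at -0.032. Of 56 genes whose symbol starts with ATP, mostly ion pumps and ATP synthase subunits, 31 rose and 11 fell. The MRPL genes, for the large mitochondrial ribosome subunit, counted 50, with 13 higher and 11 lower.

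Levels in the mouse cells of the co-culture without dox are given for a few of the genes above, as values of a table normalised on its own. Egr1 averaged 52.4 ± 2.95 CPM in the co-cultured and 537 ± 34.5 CPM in the separate mouse cells (SD, n = 3 each), and Fosb averaged 15.6 ± 1.46 CPM in the co-cultured and 317 ± 7.03 CPM in the separate mouse cells. Ndrg1 averaged 351 ± 13.03 CPM in the co-cultured and 279.6 ± 2.61 CPM in the separate mouse cells. The means of Egr1 and Fosb were thus lower in co-cultured mouse cells, and that of Ndrg1 was higher, as in the human cells. Those of Lefty1, Otx2, Sox17 and Cxcr4 were also higher, and those of Tbxt and Nkx1-2 lower, as in the human cells. Other genes differed in direction from the human cells. Co-cultured and separate mouse cells averaged 30.8 ± 1.72 and 106 ± 4.08 CPM for Cdkn1a and 22.3 ± 0.77 and 58.4 ± 0.88 CPM for Apln. The values were 495 ± 8.88 and 889 ± 58.4 CPM for Ddit4 and 8010 ± 1301 and 5768 ± 1396 CPM for mt-Co1. These genes are examples, and how many moved alike in both species was not counted. No difference between the species was tested.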
